A study of Mus musculus with 8 samples.

Results

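The genes described here are 48 enzymes and cofactors of the lysosome, chosen by name as soluble hydrolases and their helpers from the 23993 rows of one expression table. One of them, Hgsnat, is a membrane protein. They comprise 16 genes that act on protein, 17 that act on glycans, 12 that act on lipids and 3 outside these classes. All 48 were found in the table and all 48 passed the filter on low values. Messenger RNA was measured by bulk RNA sequencing in whole thoracic aortas. There were 8 libraries, all from male C57BL/6 mice aged 24 weeks. The 4 knockout aortas (Tsc1−/−) came from animals of genotype Tsc1fl/fl.Myh11-CreERT2.mT/mG. The 4 control aortas (Tsc1+/+) came from Myh11-CreERT2.mT/mG animals, which have intact Tsc1 but share the Cre and the reporter. Both genotypes received tamoxifen at 1.5 weeks. CreERT2 is a recombinase that tamoxifen activates, and the Myh11 promoter restricts it to smooth muscle cells, so other cells of the wall are not its target. The mT/mG reporter marks recombined cells by a change of colour. Although SMCs are given as the cell type, the RNA was taken from frozen and crushed aortas with no sorting step stated. Nothing in the labels says whether each library came from 1 animal or from a pool. The p-values therefore rest on the spread between libraries of the same genotype, 4 in each. A library is also called an aorta in what follows.

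Tsc1 forms, with Tsc2, a complex that restrains the growth-promoting kinase mTORC1, which itself sits on the lysosome surface. Lysosomal hydrolases are made in the endoplasmic reticulum, tagged in the Golgi with mannose 6-phosphate, carried to the lysosome and activated there by its acid. They break down proteins, glycan chains and lipids one step at a time, and inherited loss of a single one often causes a storage disease. In many cell types their genes are read together by the MiT/TFE transcription factors, which bind a palindromic E-box called the CLEAR element.

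The promoter sequence is shown for 5 members, to set the gene with the largest rise, the gene that fell and a strong riser with no motif beside 2 genes with the full element. Each stretch is the 250 bases before the start of transcription in RefSeq, written 5′ to 3′ on the gene's own strand, build GRCm38.p6. Capitals mark TCACGTGA, the 8 bases of the CLEAR core, its central E-box CACGTG where it stands alone, and TCATGTG, the M-box, on either strand. The stretches are chr2:25356333-25356582, minus strand for Dpp7, chr7:142387828-142388077, minus strand for Ctsd, chrX:134601006-134601255, minus strand for Gla, chr19:4854915-4855164, plus strand for Ctsf and chr11:88955443-88955692, minus strand for Scpep1.
Dpp7: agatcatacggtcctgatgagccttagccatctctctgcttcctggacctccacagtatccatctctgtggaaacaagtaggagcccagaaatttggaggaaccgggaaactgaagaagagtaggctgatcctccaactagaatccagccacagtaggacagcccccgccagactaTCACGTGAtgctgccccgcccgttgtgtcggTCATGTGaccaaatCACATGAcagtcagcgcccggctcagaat
Ctsd: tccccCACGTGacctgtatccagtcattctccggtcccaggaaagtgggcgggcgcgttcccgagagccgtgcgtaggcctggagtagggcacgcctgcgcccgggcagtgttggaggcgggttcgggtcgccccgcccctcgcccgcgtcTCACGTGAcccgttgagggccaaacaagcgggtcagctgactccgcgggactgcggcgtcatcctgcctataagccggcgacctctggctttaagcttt
Gla: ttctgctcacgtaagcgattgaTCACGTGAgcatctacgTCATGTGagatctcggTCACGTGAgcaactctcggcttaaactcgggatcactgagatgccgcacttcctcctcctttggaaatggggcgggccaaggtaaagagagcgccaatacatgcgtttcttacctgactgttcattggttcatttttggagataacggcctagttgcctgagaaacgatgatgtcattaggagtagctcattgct
Ctsf: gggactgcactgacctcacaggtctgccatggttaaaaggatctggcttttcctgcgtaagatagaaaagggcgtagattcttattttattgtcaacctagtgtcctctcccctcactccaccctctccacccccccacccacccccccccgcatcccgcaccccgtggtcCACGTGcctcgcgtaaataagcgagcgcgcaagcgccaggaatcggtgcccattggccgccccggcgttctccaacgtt
Scpep1: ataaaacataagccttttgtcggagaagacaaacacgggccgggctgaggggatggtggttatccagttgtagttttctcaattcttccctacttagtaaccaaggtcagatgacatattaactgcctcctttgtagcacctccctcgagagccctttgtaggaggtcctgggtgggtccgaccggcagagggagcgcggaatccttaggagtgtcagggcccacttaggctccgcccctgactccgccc
The CLEAR core began 74 bases before the start in Dpp7, 99 bases in Ctsd, and 228 and 195 bases in Gla. Dpp7 also held the M-box at 43 bases, and at 29 bases on the other strand. Ctsd held a further E-box at 245 bases, and Gla the M-box at 211 bases. Ctsf held the central E-box alone, 79 bases before its start, and Scpep1 held none of these motifs.

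Tsc1 itself, measured first as a check of the labels (chr2:28641228-28691167), gave 2.99, 3.58, 3.37 and 3.71 FPKM in knockout aortas 1 to 4, against 4.03, 4.82, 4.95 and 6.32 FPKM in control aortas 1 to 4. Every knockout value lay below every control value, with means of 3.41 ± 0.315 FPKM in knockouts and 5.03 ± 0.952 FPKM in controls (log2 difference -0.44, SE 0.12, limma adjusted p = 0.019). Values after ± are the SD over the 4 libraries of a genotype, here and below. These and all later log2 differences are knockout minus control on the log2(FPKM + 1) scale, where FPKM is the number of fragments scaled by transcript length and by the mapped fragments of the library. Read counts were not used here. The most frequent ratio of low FPKM values, set to 1 in control 1, put the relative depth between 0.758 and 1.34 in knockout libraries and between 1 and 2.43 in control libraries. Per library, 11867 to 12083 genes had at least 1 FPKM. In both genotypes the libraries numbered 1 and 3 differed from those numbered 2 and 4. The 20 macrophage markers, for example, summed to 377 and 362 FPKM in knockouts 1 and 3 and to 284 and 292 FPKM in knockouts 2 and 4. They summed to 416 and 455 FPKM in controls 1 and 3 and to 346 and 326 FPKM in controls 2 and 4. Over all tested genes, deviations from the genotype mean correlated between knockout and control libraries at 0.02 to 0.16 for differing numbers of the same parity and at -0.19 to -0.05 for an odd with an even number. The labels do not say what the numbers stand for.

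Most of the 48 members, which were chosen with earlier results of these data known, were called higher in the knockout aortas. At a limma adjusted p under 0.05, 30 of the 48 members rose, 1 fell and 17 were not called, and 40 of the 48 differences were positive. Over all 12107 genes tested, 17.1% were called higher (2074 genes) and 15% lower (1819 genes). The median log2 difference of the members was 0.36, and that of all tested genes was 0.01. The 30 rises ranged from 0.19 to 1.80 on the log2 scale with a median ratio of means of 1.44, and 13 of them reached 1.5 times and 3 reached 2 times the control mean. Within the odd-numbered libraries alone, 2 against 2, 27 members were called higher and Ctsf lower. The even-numbered libraries alone gave 25 higher and Ctsh lower. With the parity of the replicate number as a covariate over all 8 libraries, 35 were higher (the 30 and Ctso, Ctsz, Lgmn, Gla and Arsa) and Ctsf was lower. In 31 members (the 30 risers and Lgmn) every knockout library lay above every control library, against 18.3% of all tested genes, and in 2 members (Ctsf and Galns) every knockout library lay below, against 15.6%.

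**Figure D1:**
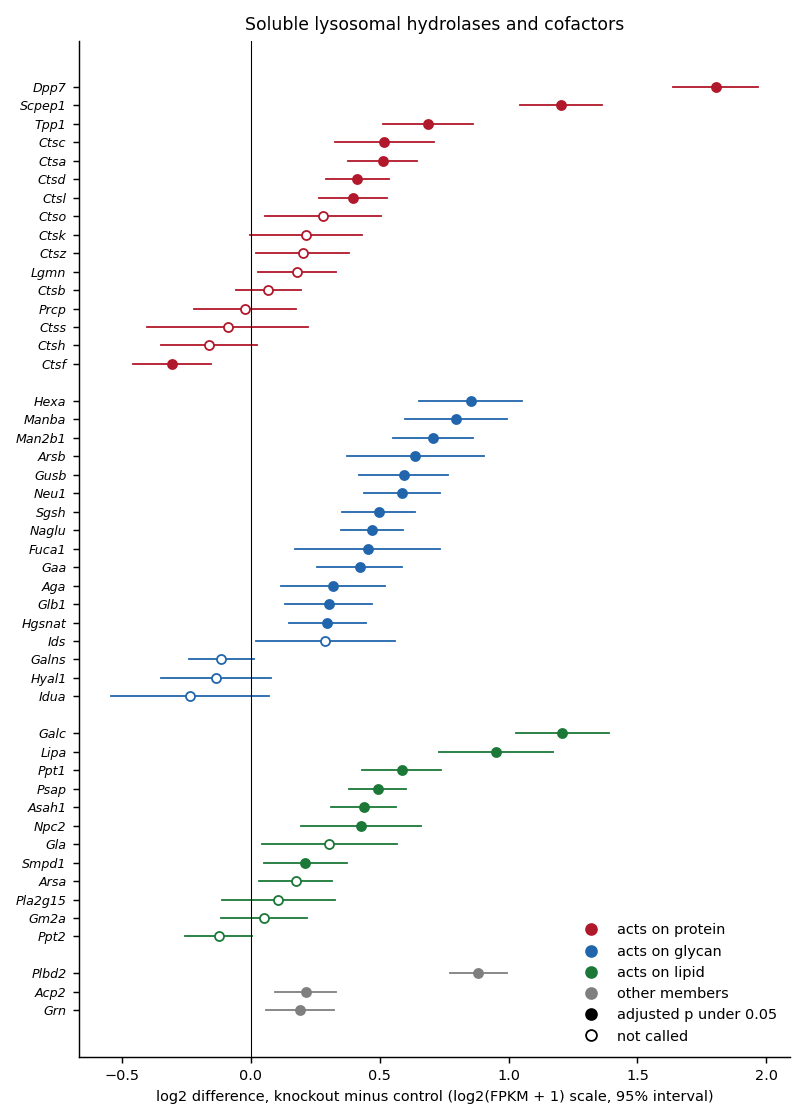
Log2 difference, knockout minus control, of each of the 48 members, grouped by substrate class. Points are limma estimates with 95% intervals, n = 4 per genotype, filled where the adjusted p was under 0.05. Dpp7 at 1.80 stood highest and Ctsf at -0.31 lowest, and the 30 filled points to the right of 0 were spread over all 4 classes.

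Summed over the 48 members, the level was 4068, 3915, 4048 and 3819 FPKM in knockout aortas 1 to 4, against 2899.9, 2939, 3058 and 2947 FPKM in control aortas 1 to 4. The groups did not overlap, with means of 3962 ± 117 FPKM in knockouts and 2961 ± 67.8 FPKM in controls (SD, n = 4 each). Proteases summed to between 1839.6 and 1997 FPKM in knockouts and between 1462 and 1526 FPKM in controls. Glycan enzymes summed to between 580.4 and 629 FPKM in knockouts and between 422 and 449.9 FPKM in controls. Lipid enzymes and their cofactors summed to between 1163 and 1209 FPKM in knockouts and between 849 and 895 FPKM in controls. Psap, Ctsd, Ctsb and Ctsl together made up between 44.5% and 45.2% of the members' sum in knockouts and between 44.6% and 46.4% in controls, so the sum rested on a few abundant genes in both genotypes. FPKM is a share of each library, and total RNA per aorta was not measured here. The FPKM of all rows summed to between 453564 and 467703 in knockouts, against 753105, 937271, 593264 and 483615 in controls 1 to 4. In each of controls 1 to 3 a single short RNA row, listed at 0 in every other library, held 267696, 446002 and 101808 FPKM in turn. Without these 3 rows the control sums were 483615 to 491456 FPKM. Scaling each library by the median of ratios left 30 members higher and 1 lower.

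Among the enzymes acting on protein the largest rises were those of 2 serine peptidases. Of the 16, 7 rose, 1 fell and 8 were not called, with a median log2 difference of 0.25. Grouped by catalytic family after their values were seen, 4 of the 5 serine peptidases rose, and 2 of the 9 cysteine cathepsins did. This contrast was not tested. Dpp7, dipeptidyl peptidase 2 (chr2:25352276-25356359, minus strand), cuts dipeptides from the amino end of short peptides. It measured 46.4, 45.4, 42.9 and 41 FPKM in knockout aortas 1 to 4, against 12.3, 11, 13.2 and 11.1 FPKM in control aortas 1 to 4. The lowest knockout lay far above the highest control, and Dpp7 had the largest rise of the 48 members, 3.69 times the control mean (log2 difference 1.80, SE 0.07, limma adjusted p = 6.17e-06). Scpep1, a serine carboxypeptidase first described as induced by retinoids (chr11:88924020-88955465, minus strand), measured 232, 201, 214 and 194 FPKM in knockout aortas 1 to 4, against 83.9, 94.3, 90.5 and 94.2 FPKM in control aortas 1 to 4. Its groups were also far apart, with means of 210.4 ± 16.6 FPKM in knockouts and 90.7 ± 4.89 FPKM in controls (log2 difference 1.20, SE 0.07, limma adjusted p = 1.95e-05). Tpp1, the tripeptidyl peptidase lost in a form of neuronal ceroid lipofuscinosis, averaged 91.3 ± 5.45 FPKM in knockouts and 56.4 ± 4.95 FPKM in controls (log2 difference 0.69, SE 0.08, limma adjusted p = 3.39e-04). Ctsa, the carboxypeptidase that also shields Neu1 and Glb1 from breakdown, averaged 98.9 ± 4.08 FPKM in knockouts and 69.1 ± 4 FPKM in controls (log2 difference 0.51, SE 0.06, limma adjusted p = 3.97e-04). Prcp, the fifth serine peptidase, which cuts after proline, averaged 8.19 ± 0.489 FPKM in knockouts and 8.37 ± 1.07 FPKM in controls (log2 difference -0.02, 95% interval -0.22 to 0.18, limma adjusted p = 0.875).

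The most abundant protease was the aspartic protease cathepsin D. Ctsd (chr7:142375911-142388038, minus strand) measured 617, 593, 616 and 553 FPKM in knockout aortas 1 to 4, against 439, 451, 459 and 436 FPKM in control aortas 1 to 4. Its groups did not overlap, although knockout 4 lay below the other knockouts (log2 difference 0.41, SE 0.05, limma adjusted p = 6.95e-04). Under quantile scaling the Ctsd log2 difference was 0.67. Ctsb, the cysteine protease cathepsin B (chr14:63122462-63145923, plus strand), measured 213, 219, 216 and 214 FPKM in knockout aortas 1 to 4, against 208, 197, 223 and 194 FPKM in control aortas 1 to 4. Here the knockouts lay within the range of the controls and no difference was detected (log2 difference 0.07, 95% interval -0.06 to 0.20, limma adjusted p = 0.38). Ctsl, cathepsin L (chr13:64359337-64370890, minus strand), measured 229, 223, 219.9 and 237 FPKM in knockout aortas 1 to 4, against 172, 167, 187 and 163 FPKM in control aortas 1 to 4. Its knockouts lay above all controls (log2 difference 0.40, SE 0.06, limma adjusted p = 0.00121). A pseudogene on the same strand overlaps the exons of Ctsl, and exons of Fdft1 overlap those of Ctsb on the opposite strand, so some fragments of either gene may have been shared.

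Among the remaining cysteine cathepsins, Ctsc rose and Ctsf fell. Ctsc, which activates serine proteases of immune cells, averaged 31.6 ± 1.03 FPKM in knockouts and 21.9 ± 2.59 FPKM in controls (log2 difference 0.52, SE 0.08, limma adjusted p = 0.0021). Ctsf, cathepsin F (chr19:4855130-4860918, plus strand), measured 26.1, 29.5, 26.9 and 29.2 FPKM in knockout aortas 1 to 4, against 33.1, 33.3, 38 and 34.6 FPKM in control aortas 1 to 4. Each knockout value lay below each control value, at 0.804 times the control mean (log2 difference -0.31, SE 0.07, limma adjusted p = 0.00869). The Ctsf difference was -0.41 within the odd-numbered and -0.20 within the even-numbered libraries, where the limma adjusted p was 0.0591. Ctso, Ctsk, Ctsz and Lgmn had positive differences that did not pass the test, with limma adjusted p of 0.0603 for Ctso, 0.118 for the collagen-degrading Ctsk, 0.0841 for Ctsz and 0.068 for Lgmn, the asparagine-specific protease that matures cathepsins. With the parity of the replicate number as a covariate, the Ctso log2 difference (0.28, limma adjusted p = 0.00897), the Ctsz log2 difference (0.20, limma adjusted p = 0.01997) and the Lgmn log2 difference (0.18, limma adjusted p = 0.0484) were called higher. In Lgmn the lowest knockout, at 77.4 FPKM, lay just above the highest control, at 76.4 FPKM (log2 difference 0.18, 95% interval 0.03 to 0.33, limma adjusted p = 0.068). Ctss, a cathepsin of antigen-presenting cells, averaged 13.9 ± 1.6 FPKM in knockouts and 15 ± 3.05 FPKM in controls (log2 difference -0.09, 95% interval -0.40 to 0.22, limma adjusted p = 0.659). Ctsh, an aminopeptidase, averaged 127 ± 14.9 FPKM in knockouts and 142 ± 4.07 FPKM in controls (log2 difference -0.16, 95% interval -0.35 to 0.03, limma adjusted p = 0.17). Its 2 low values were those of knockouts 2 and 4, at 117 and 112 FPKM, while knockouts 1 and 3 had 135 and 144 FPKM. Within the even-numbered libraries Ctsh was called lower, with a log2 difference of -0.32 (limma adjusted p = 0.0192).

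**Figure D2:**
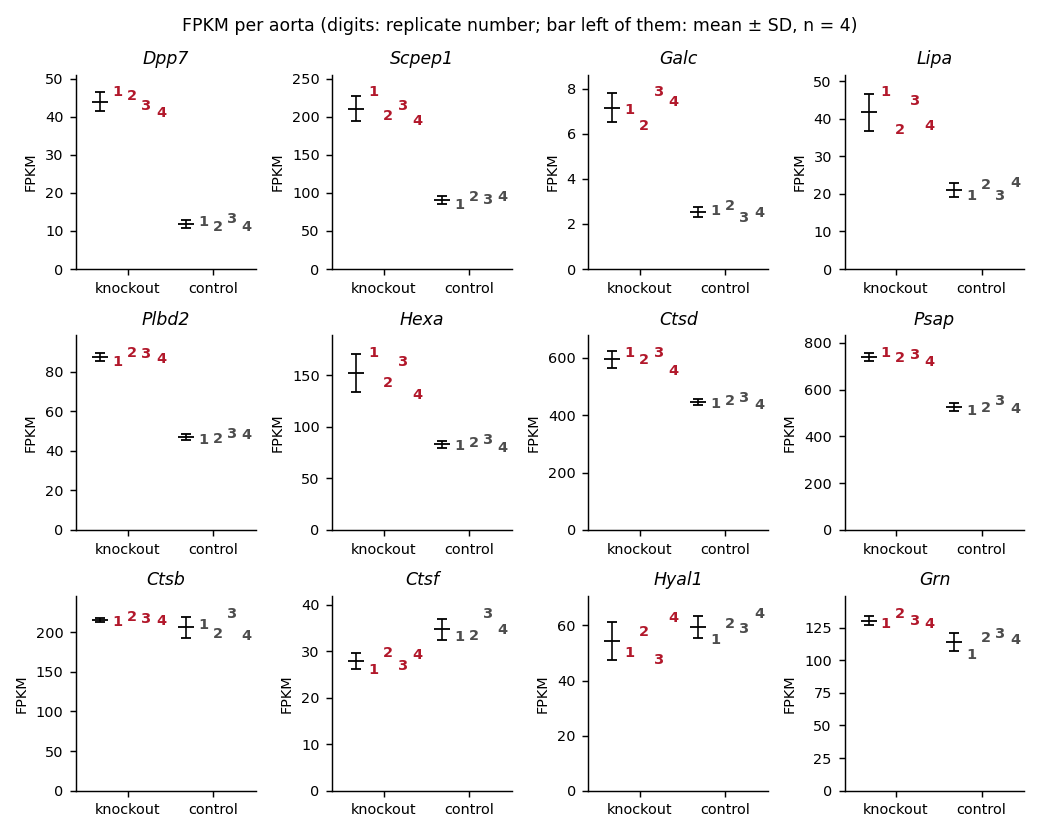
FPKM of 12 members in each aorta, knockout left of control, on axes that start at 0. Digits are replicate numbers, and the bar left of them is the mean ± SD (n = 4). Dpp7, Scpep1 and Galc had groups far apart, Ctsd and Psap groups that were close but separate, and Ctsb and Hyal1 groups that overlapped. Ctsf was the one panel with all knockouts below all controls.

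Most enzymes that dismantle glycans rose. Of the 17, 13 were called higher, none lower and 4 were not called, with a median log2 difference of 0.45. At an unadjusted limma p under 0.05 none was lower either. Each of the 13 had all knockout libraries above all controls. Hexa, the alpha subunit of beta-hexosaminidase (chr9:59539540-59565109, plus strand), measured 172, 142, 163 and 131 FPKM in knockout aortas 1 to 4, against 81.6, 84.6, 87.4 and 79.6 FPKM in control aortas 1 to 4. Knockouts 1 and 3 were higher than 2 and 4, and the lowest of them still exceeded every control (log2 difference 0.85, SE 0.09, limma adjusted p = 2.36e-04). Manba and Man2b1, the beta- and alpha-mannosidases that trim glycoprotein chains, had the next largest rises of the class. Manba (chr3:135485611-135571404, plus strand) measured 18.2, 16.5, 18.9 and 15.5 FPKM in the knockouts, against 9.52, 8.97, 10.9 and 8.67 FPKM in the controls (log2 difference 0.80, SE 0.09, limma adjusted p = 3.11e-04). Man2b1 (chr8:85083270-85098282, plus strand) measured 43.9, 39.2, 45.4 and 38.6 FPKM in the knockouts, against 23.5, 25.8, 25.9 and 25.4 FPKM in the controls (log2 difference 0.71, SE 0.07, limma adjusted p = 1.77e-04). In both mannosidases the groups were clear of each other.

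The 3 most abundant glycan enzymes were Hexa, Hyal1 and Gaa. Hyal1, which cuts hyaluronan (chr9:107576927-107581710, plus strand), measured 50, 57.5, 47.3 and 62.6 FPKM in knockout aortas 1 to 4, against 54.8, 60.4, 58.6 and 64.2 FPKM in control aortas 1 to 4. The groups overlapped and no difference was detected (log2 difference -0.13, 95% interval -0.35 to 0.08, limma adjusted p = 0.31). Exons of Naa80 and Hyal3 overlap those of Hyal1 on the same strand, by up to 1836 bases, so the level of Hyal1 may include their fragments. Gaa, the acid alpha-glucosidase that degrades glycogen (chr11:119267887-119285454, plus strand), measured 60.8, 60, 62.1 and 57.4 FPKM in knockout aortas 1 to 4, against 43.9, 42.1, 51.2 and 41.5 FPKM in control aortas 1 to 4. Control 3 was the highest control, and every knockout lay above it (log2 difference 0.42, SE 0.07, limma adjusted p = 0.00279).

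Grouped by pathway after their values were seen, the 5 members placed as glycoprotein enzymes (Man2b1, Manba, Fuca1, Aga and Neu1) were all among the 13. The group was a choice among the members, so this count describes these 5 alone. Neu1, the sialidase, averaged 12.9 ± 0.708 FPKM in knockouts and 8.25 ± 0.536 FPKM in controls (log2 difference 0.59, SE 0.07, limma adjusted p = 3.44e-04). Fuca1, the alpha-fucosidase, measured 54.8, 40.3, 53.7 and 38.6 FPKM in the knockouts, against 29.8, 34.5, 35.2 and 34.8 FPKM in the controls. Its highest values were those of knockouts 1 and 3 (log2 difference 0.45, SE 0.12, limma adjusted p = 0.0225), and within the even-numbered libraries the difference was 0.18 (limma adjusted p = 0.0731). The Fuca1 log2 difference was no longer called without knockout 1 (0.38, limma adjusted p = 0.0523), knockout 3 (0.38, limma adjusted p = 0.0579) or control 1 (0.40, limma adjusted p = 0.0577). The summed macrophage markers were also highest in knockouts 1 and 3, at 377 and 362 FPKM. In controls the markers were highest in 1 and 3 as well, at 416 and 455 FPKM. Fuca1 was lowest in control 1 and highest in control 3. Whether macrophages contributed to the order of Fuca1 was not tested. Aga, which splits the bond between glycan and asparagine, showed the other order of libraries, with 23, 27.5, 25 and 28.8 FPKM in the knockouts, against 22.9, 18.4, 21.1 and 20.3 FPKM in the controls. Its difference was 0.52 within the even-numbered and 0.12 within the odd-numbered libraries (log2 difference 0.32, SE 0.09, limma adjusted p = 0.0235 over all 8). The Aga log2 difference was not called without knockout 2, knockout 4, control 2 or control 4, at 0.27 to 0.31 (limma adjusted p = 0.0522 to 0.0624).

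Of 9 members placed as enzymes that degrade glycosaminoglycans, the long sugar chains of proteoglycans (also grouped after their values were seen), 5 rose and 4 were not called. Hexa and Glb1, both called higher, were not placed in this group, so the count depends on the choice. Among the 5 risers were Naglu, Sgsh and Hgsnat, which are not the only ones of the 9 that act on heparan sulfate. Naglu averaged 21 ± 0.697 FPKM in knockouts and 14.9 ± 0.640 FPKM in controls (log2 difference 0.47, SE 0.05, limma adjusted p = 3.77e-04), and Sgsh averaged 15.8 ± 0.461 FPKM in knockouts and 10.9 ± 0.808 FPKM in controls (log2 difference 0.50, SE 0.06, limma adjusted p = 6.17e-04). Hgsnat, an acetyltransferase that spans the lysosomal membrane, averaged 23.5 ± 1.62 FPKM in knockouts and 18.9 ± 0.992 FPKM in controls (log2 difference 0.30, SE 0.07, limma adjusted p = 0.00932). The other risers were Gusb, beta-glucuronidase, at a log2 difference of 0.59 (limma adjusted p = 6.54e-04), and Arsb, the sulfatase of dermatan and chondroitin sulfate, at 0.64 (limma adjusted p = 0.00376). Those not called were Hyal1, Ids, Idua and Galns. Ids, the iduronate sulfatase, averaged 44.5 ± 5.8 FPKM in knockouts and 36.3 ± 5.44 FPKM in controls (log2 difference 0.29, 95% interval 0.02 to 0.56, limma adjusted p = 0.0936). Idua, the iduronidase, spread from 8.7 to 14.7 FPKM in knockouts and from 12.3 to 14.8 FPKM in controls (log2 difference -0.23, 95% interval -0.54 to 0.07, limma adjusted p = 0.214). Without knockout 1, its highest knockout value, the Idua log2 difference was -0.35 and was called lower (limma adjusted p = 0.0431). Galns, a sulfatase of keratan sulfate, had every knockout below every control at close levels, 4.94 ± 0.165 FPKM in knockouts and 5.43 ± 0.148 FPKM in controls (log2 difference -0.11, 95% interval -0.24 to 0.01, limma adjusted p = 0.153). Glb1, beta-galactosidase, completed the 13, with 19.2 ± 0.984 FPKM in knockouts and 15.4 ± 1.38 FPKM in controls (log2 difference 0.30, SE 0.07, limma adjusted p = 0.0143).

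**Figure D3:**
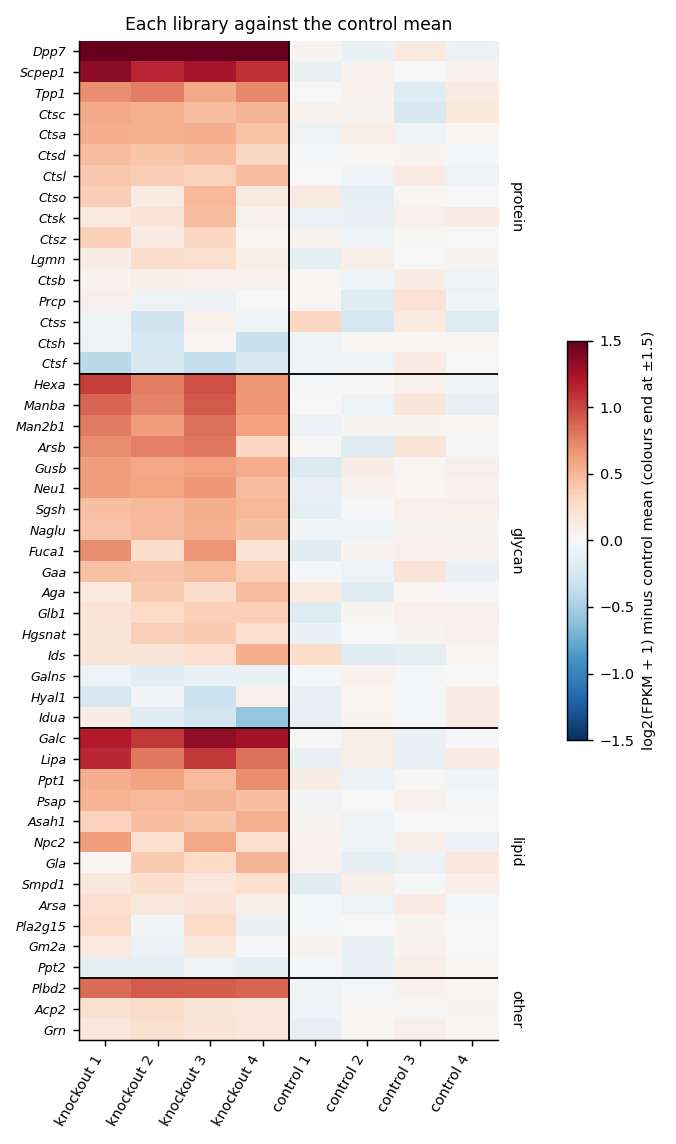
Log2(FPKM + 1) of each member in each library minus the mean of the 4 controls, with colours that end at ±1.5. The knockout columns were red for most members in all 4 libraries, and 27 to 30 members were called higher when any 1 of the 8 libraries was left out. In Fuca1, Npc2 and Hexa the columns of knockouts 1 and 3 were darker than those of knockouts 2 and 4.

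Lipid enzymes and their cofactors ranged from clear rises to genes with little difference. Of the 12, 7 rose and 5 were not called, and none fell, also at an unadjusted limma p under 0.05. Their median log2 difference was 0.37. Galc, which removes galactose from galactosylceramide (chr12:98202294-98259459, minus strand), measured 7.04, 6.34, 7.85 and 7.42 FPKM in knockout aortas 1 to 4, against 2.57, 2.78, 2.28 and 2.48 FPKM in control aortas 1 to 4. The 4 knockouts stood well clear of the controls, at 2.83 times their mean, although at a low level (log2 difference 1.21, SE 0.08, limma adjusted p = 3.06e-05). Lipa, the acid lipase that frees cholesterol and fatty acids from lipoprotein lipids (chr19:34492318-34527474, minus strand), measured 47, 36.9, 44.8 and 37.9 FPKM in knockout aortas 1 to 4, against 19.3, 22.4, 19.4 and 22.9 FPKM in control aortas 1 to 4. Odd-numbered knockouts were higher and odd-numbered controls lower than the even-numbered ones. The Lipa difference was 1.20 within odd-numbered and 0.70 within even-numbered libraries, and Lipa was the 1 member whose genotype difference differed between them (interaction 0.50, limma adjusted p = 0.0401; 1.62% of all tested genes were so called).

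Psap, the precursor of the saposins that present sphingolipids to their enzymes (chr10:60277627-60302597, plus strand), was the most abundant member. It measured 756, 734, 749 and 718 FPKM in knockout aortas 1 to 4, against 510.0, 521, 551 and 519 FPKM in control aortas 1 to 4. The groups did not overlap and the replicates lay close, with means of 739 ± 16.9 FPKM in knockouts and 525 ± 17.8 FPKM in controls (log2 difference 0.49, SE 0.05, limma adjusted p = 1.88e-04; the Psap log2 difference was 0.76 under quantile scaling). Ppt1, which removes palmitate from proteins (chr4:122836242-122859175, plus strand), measured 98.6, 103, 94 and 109.8 FPKM in the knockouts, against 72.3, 63, 68 and 65.3 FPKM in the controls (log2 difference 0.59, SE 0.07, limma adjusted p = 3.82e-04). Asah1, acid ceramidase (chr8:41340197-41374773, minus strand), measured 72.9, 78.9, 76.5 and 83.6 FPKM in the knockouts, against 58.7, 55.2, 57.5 and 57.5 FPKM in the controls (log2 difference 0.44, SE 0.06, limma adjusted p = 6.54e-04). Both had all knockouts above all controls. Npc2, the soluble carrier that hands cholesterol to Npc1, averaged 55.3 ± 8.03 FPKM in knockouts and 40.6 ± 2.65 FPKM in controls (log2 difference 0.43, SE 0.10, limma adjusted p = 0.013), with 63.3 and 61.1 FPKM in knockouts 1 and 3 and 48.4 and 48.3 FPKM in knockouts 2 and 4. Smpd1, acid sphingomyelinase, lay nearest the threshold, at 62.2 ± 2.3 FPKM in knockouts and 53.7 ± 4.76 FPKM in controls (log2 difference 0.21, SE 0.07, limma adjusted p = 0.0488), and its call was lost in 11 of 20 alternative analyses. The Smpd1 log2 difference ran from 0.16 to 0.25 when 1 library was left out and was called without control 2 or control 4 alone.

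The 5 lipid genes not called were Gla, Arsa, Pla2g15, Gm2a and Ppt2. Gla, alpha-galactosidase A, had the lowest level of all members, and knockout 1 at 3.87 FPKM lay within the controls while the other knockouts had 4.87 to 5.83 FPKM (log2 difference 0.31, 95% interval 0.04 to 0.57, limma adjusted p = 0.0742). With the parity of the replicate number as a covariate the Gla log2 difference of 0.31 was called higher (limma adjusted p = 0.0475), and so was the Arsa log2 difference of 0.17 (limma adjusted p = 0.0276). Arsa, the sulfatase of sulfatide, averaged 17.3 ± 0.777 FPKM in knockouts and 15.2 ± 1.01 FPKM in controls (log2 difference 0.17, 95% interval 0.03 to 0.32, limma adjusted p = 0.0614). For Gm2a, the activator that lifts GM2 ganglioside to beta-hexosaminidase, the interval spanned 0 (log2 difference 0.05, 95% interval -0.12 to 0.22, limma adjusted p = 0.629). The enzyme subunit Hexa rose by 0.85, and the difference between them was not tested. Pla2g15, a phospholipase, had 23.6 and 23.5 FPKM in knockouts 1 and 3 and 18.5 and 17.8 FPKM in knockouts 2 and 4, on either side of the controls (log2 difference 0.11, 95% interval -0.11 to 0.33, limma adjusted p = 0.426). Within the odd-numbered libraries alone Pla2g15 was called higher, with a log2 difference of 0.28 (limma adjusted p = 0.0424). Ppt2, a thioesterase related to Ppt1, averaged 27.4 ± 0.703 FPKM in knockouts and 30 ± 1.76 FPKM in controls (log2 difference -0.12, 95% interval -0.25 to 0.0046, limma adjusted p = 0.128).

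All 3 members outside these classes rose. Plbd2, which resembles a phospholipase B (chr5:120483282-120503625, minus strand), measured 85.1, 89.5, 89.2 and 86.7 FPKM in knockout aortas 1 to 4, against 45.5, 46.2, 48.7 and 47.9 FPKM in control aortas 1 to 4. It had among the tightest replicates and no overlap (log2 difference 0.88, SE 0.05, limma adjusted p = 1.68e-05). Grn, progranulin, which is cut into granulins in the lysosome (chr11:102430315-102437048, plus strand), measured 128, 135, 130.3 and 128 FPKM in knockout aortas 1 to 4, against 104, 117, 119.9 and 116 FPKM in control aortas 1 to 4. The difference was small, with all knockouts above all controls (log2 difference 0.19, SE 0.06, limma adjusted p = 0.0333), and its call was lost in 9 of 20 alternatives. The Grn log2 difference ran from 0.15 to 0.22 when 1 library was left out and was called without control 3 alone. Acp2, lysosomal acid phosphatase (chr2:91202885-91214098, plus strand), measured 21.6, 22.4, 20.8 and 20.7 FPKM in knockout aortas 1 to 4, against 17.4, 18.4, 18.4 and 18.8 FPKM in control aortas 1 to 4. It too rose by a small step without overlap (log2 difference 0.21, SE 0.05, limma adjusted p = 0.0139).

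The 17 members not called had differences between -0.23 and 0.31 on the log2 scale, and 6 of them had an unadjusted limma p under 0.05. Some of these calls turned on 1 library. The Gla log2 difference was 0.40 without knockout 1 (limma adjusted p = 0.0214), the Ctso log2 difference 0.33 without knockout 2 (limma adjusted p = 0.0478), and the Ctsz log2 difference 0.26 without knockout 4 (limma adjusted p = 0.0301). The Ids log2 difference was 0.38 without control 1 (limma adjusted p = 0.0306), and the Arsa log2 difference 0.22 without control 3 (limma adjusted p = 0.0294). The coefficient of variation between replicates had a median over members of 6.03% in knockouts (1.15% to 21.7%) and 6.54% in controls (2.39% to 20.3%). Mean levels over the 8 libraries ran from 4.38 FPKM in Gla to 632 FPKM in Psap. Exons of 19 of the 48 members overlap another annotated gene in GENCODE M21, and without stated strand counting their fragments cannot be told apart.

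Promoter windows of 300 bases, from 250 before to 50 after the RefSeq start, were found for 41 of the 48 members. The CLEAR core TCACGTGA stood in the windows of 4 members (Ctsa, Ctsd, Dpp7 and Gla), or 9.76%, against 1.12% of 27025 gene symbols with a window and 2.34% of the 9096 symbols among them that were tested here. The shorter E-box CACGTG, which the core contains, stood in 12 members, or 29.3%, against 8.09% of all symbols and 11.9% of tested symbols. The M-box TCATGTG stood in 7 members, or 17.1%, against 4.31% and 2.45%. Both strands were searched. A match is a run of letters and not a measured binding site. Of the 12 members with the E-box 8 rose, 1 fell and 3 were not called, and 18 of the 29 without it rose. The median log2 differences were 0.41 with and 0.43 without the E-box. Of the 4 members with the CLEAR core 3 rose, and the medians were 0.46 with and 0.40 without it. Of the 7 with the M-box 5 rose, and the medians were 0.51 with and 0.41 without it. None of these contrasts was tested. Dpp7, with a rise of 1.80, and Ctsf, the gene that fell, both held the E-box CACGTG. Scpep1, with a rise of 1.20, held no motif in the stretch printed above.

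**Figure D4:**
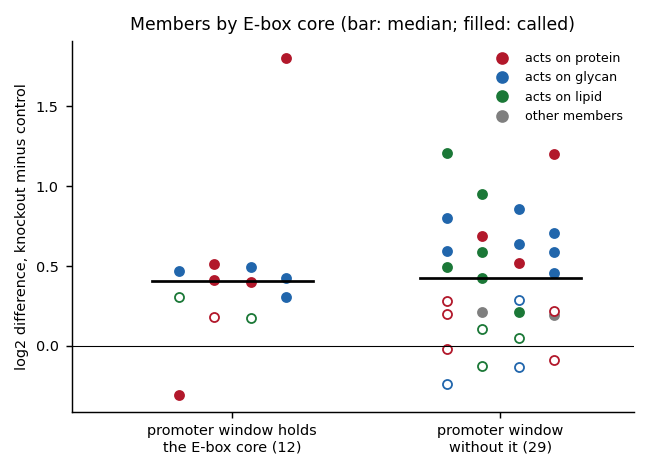
Log2 difference, knockout minus control, of the 41 members with a promoter window, split by whether the window holds CACGTG (12 members) or not (29 members). Points are genes, filled where called and coloured by substrate class, and bars are medians. The medians, 0.41 and 0.43, lay at about the same height, and both sides held called and uncalled genes.

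Other enzymes of the same compartment were measured beside the 48. Of 23 further lumenal enzymes 19 were tested, and 8 rose, none fell (0 also at an unadjusted limma p under 0.05) and 11 were not called, with a median log2 difference of 0.27. Ifi30, a thiol reductase that opens disulfide bonds, averaged 70.3 ± 4.27 FPKM in knockouts and 37.7 ± 8.01 FPKM in controls (log2 difference 0.90, SE 0.14, limma adjusted p = 0.00144).

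Genes that tag, sort and activate the hydrolases rose in part. Of 18 tested, 7 rose, none fell and 11 were not called, with a median of 0.15. At an unadjusted limma p under 0.05, 3 were lower. Sumf1, which forms the catalytic residue of every sulfatase, measured 45.6, 43.5, 44.5 and 44.1 FPKM in knockout aortas 1 to 4, against 25, 24.5, 28.2 and 27 FPKM in control aortas 1 to 4. Its groups were far apart (log2 difference 0.74, SE 0.06, limma adjusted p = 6.88e-05), and 2 of the 5 sulfatases among the members, grouped after their values were seen, rose (Arsb and Sgsh). Scarb2, the receptor that carries glucocerebrosidase to the lysosome, averaged 81.6 ± 9.5 FPKM in knockouts and 53.4 ± 7.47 FPKM in controls (log2 difference 0.61, SE 0.12, limma adjusted p = 0.00443). Gnptab, which encodes the catalytic subunits of the enzyme that makes the mannose 6-phosphate tag, averaged 14.2 ± 1.05 FPKM in knockouts and 9.17 ± 0.975 FPKM in controls (log2 difference 0.58, SE 0.08, limma adjusted p = 0.00117). The 4 other risers, named after their values were seen, were the tagging genes Gnptg (0.29) and Nagpa (0.39) and the tag's receptors M6pr (0.23) and Igf2r (0.34), with limma adjusted p of 0.0343, 0.00138, 0.0246 and 0.0112 in that order.

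Cystatins, the inhibitors of cysteine cathepsins, were measured as a separate list. Of 7 listed protease inhibitors 4 were tested, and 2 rose. Cstb, the cytosolic cystatin B, measured 124, 129.7, 129 and 123 FPKM in the knockouts, against 73, 72.5, 78.7 and 75.8 FPKM in the controls (log2 difference 0.75, SE 0.05, limma adjusted p = 3.41e-05). Cst3, the secreted cystatin C, measured 3379, 2283, 2999.8 and 2163 FPKM in the knockouts, against 1791, 2095, 1887 and 2019 FPKM in the controls (log2 difference 0.45, SE 0.14, limma adjusted p = 0.0375), with knockouts 1 and 3 highest. All knockouts lay above all controls in both genes. The Cst3 log2 difference was not called without knockout 1, knockout 3 or any 1 control, at 0.34 to 0.49 (limma adjusted p = 0.0607 to 0.0938).

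The proton pump that acidifies the lysosome and the proteins of its membrane are given for comparison. All 16 tested pump genes rose (median 0.48), led by Atp6v1b2 (0.77, limma adjusted p = 8.61e-05), a subunit of the part that splits ATP. Of 19 membrane proteins 13 rose, 1 fell and 5 were not called (median 0.58). Ctns, the cystine exporter, rose by 0.96 (limma adjusted p = 3.40e-05), and Abcb9, a peptide transporter, was the one that fell (-0.39, limma adjusted p = 0.023). The Abcb9 log2 difference was not called without knockout 1, knockout 3 or control 2, at -0.37 to -0.34 (limma adjusted p = 0.0574 to 0.0603). These list medians are descriptions beside the members' 0.36, and the lists were not tested against each other.

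**Figure D5:**
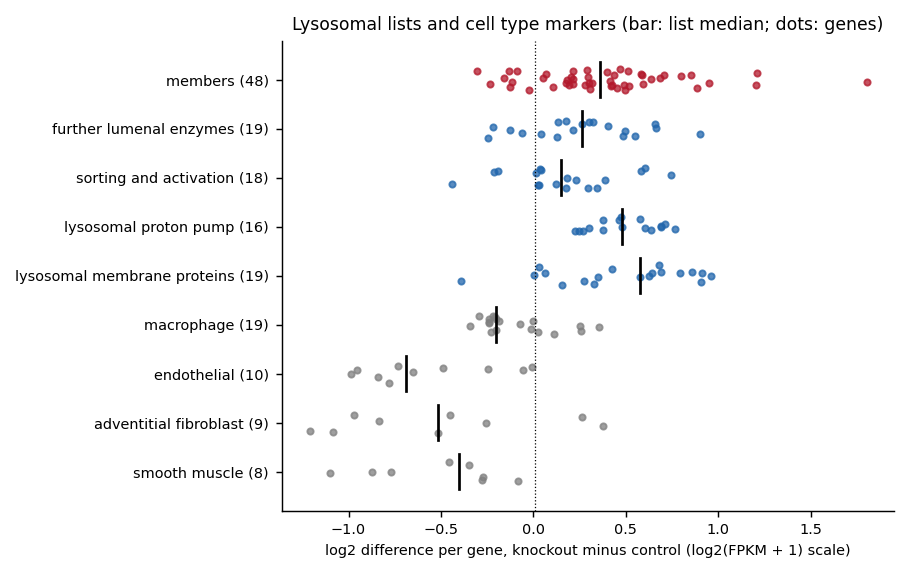
Log2 difference, knockout minus control, of every tested gene in 5 lysosomal lists and 4 lists of cell type markers, with the number of genes tested in brackets. Dots are genes, bars are list medians and the dotted line is the median of all tested genes. The medians of the lysosomal lists, from 0.15 to 0.58, lay right of the line, and those of the macrophage, endothelial, adventitial fibroblast and smooth muscle markers left of it.

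Among tested markers of the cell types that an aorta can hold, only Tnnt2 was called higher. Of all tested genes 17.1% were called higher and 15% lower. In bulk RNA fewer cells of a type and less RNA per cell cannot be told apart. Macrophages are rich in lysosomes, and of their 20 markers 19 were tested, of which 0 rose, Mertk fell (-0.29, limma adjusted p = 0.0163) and 18 were not called (median -0.20). At an unadjusted limma p under 0.05, 2 were higher, Cx3cr1 (0.26) and Mpeg1 (0.35). The summed macrophage level was 284 to 377 FPKM in knockouts and 326 to 455 FPKM in controls. Lyz2, the most abundant of these markers, averaged 90.8 ± 13.1 FPKM in knockouts and 107 ± 14.7 FPKM in controls (limma adjusted p = 0.17). The part of any cell type in the members' levels was not tested. Of 8 osteoclast markers 3 were tested. Tnfrsf11a fell (-1.24), at 3.48 to 8.76 FPKM in knockouts and 14.3 to 15.6 FPKM in controls. Acp5, at 3.33 to 10.4 FPKM over all libraries, and Nfatc1, at 7.41 to 9.68 FPKM, were not called (0.21 and -0.13). Calcr, Ocstamp, Dcstamp and Oscar lay at 0 to 0.196 FPKM in every library, and Atp6v0d2 at 0.0699 to 0.356 FPKM. Markers of smooth muscle, the labelled cell type, were abundant and summed to 11313 to 15127 FPKM in knockouts and 17260.1 to 17657 FPKM in controls, with 5 of 8 called lower, led by Cnn1 (-1.10, limma adjusted p = 0.00112). Endothelial markers were lower for 6 of 10 (Pecam1 -0.99) and adventitial fibroblast markers for 5 of 9 (Ly6c1 -1.21), with none called higher in either list (0 and 1 at an unadjusted limma p under 0.05). Schwann cell markers were lower for 3 of 5. Fat cell markers were lower for 1 of 7 (Retn -1.03), near the share of all tested genes. The Retn groups overlapped, with 2.89 to 6.65 FPKM in knockouts, 17.3 FPKM in control 1 and 6.14 to 9.76 FPKM in the other controls. Adipoq, not called, also had its highest value in control 1, at 44 FPKM against 9.13 to 14.7 FPKM in the other controls. In the striated muscle list Tnnt2 rose (1.07) and Ckm fell (-1.93), and no tested red blood cell marker (4) or T, B and NK cell marker (1) was called.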

How the data were processed

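RNA was selected for polyA from 500 ng of total RNA per library, per the labels' protocols. The authors deposited 1 table of FPKM values for the 8 libraries. TopHat2, Cufflinks, Cuffdiff and the build mm10 are named in the submitters' processing notes, with no versions. Of the annotation, the use of strand and any scaling between libraries nothing is stated. FPKM are not counts, so the depth of each library is unknown beyond the relative estimate given above.

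Genes whose mean over all libraries reached 1 FPKM were tested on log2(FPKM + 1) with limma 3.58.1 in R 4.3.3 (empirical Bayes with a trend, two-sided, no covariate). P-values were adjusted by Benjamini-Hochberg over all 12107 genes tested and called under 0.05. The procedure was tested on simulated data with few genes changed and no pattern shared by odd or even libraries. These data differ in both, so that test does not give the error rate of the calls here. Members were matched by symbol, located in GENCODE M21 and given RefSeq promoter windows. Members, lists and tests were chosen with earlier results of these data known. Values in every library are given for members called lower, the 8 largest rises, the 3 highest levels in each of the protein, glycan and lipid classes, the largest rise of each class and the class outside them. Up to 3 called genes per direction are named from other lists, and the values of some of these genes are not reported here. Members and genes named beyond this were chosen after their values were seen. The 20 alternatives covered pseudocount, filter, scaling, library weights, trend, replicate numbers and leaving out each library. Protein sequences were not analysed here.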

Additional observations from a re-analysis of the deposited data

Results flagged for a closer look

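Within groups of 4 libraries, 6 of the 162 groups examined (81 genes in 2 genotypes) had 1 value whose gap to its nearest neighbour, over the whole range, exceeded Dixon's 95% critical value. Chance flags about 1 in 20 such groups. Ctsa, the carboxypeptidase that shields Neu1 and Glb1, had 92.8 FPKM in knockout 4, while the other knockouts had 100.1 to 101 FPKM. Ppt2, a thioesterase, had 28.5 FPKM in knockout 3, while the other knockouts had 27.0 to 27.2 FPKM. Glb1, beta-galactosidase, had 13.4 FPKM in control 1, while the other controls had 15.8 to 16.3 FPKM. Fuca1, the fucosidase, had 29.8 FPKM in control 1, while the other controls had 34.5 to 35.2 FPKM. Atp6v1h, a subunit of the proton pump, had 23.7 FPKM in control 4, while the other controls had 26.3 to 26.8 FPKM. Ckm, a creatine kinase of striated muscle, had 26.8 FPKM in control 4, while the other controls had 4.27 to 7.33 FPKM. Fuca1 was no longer called without control 1.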

How the results depend on the processing

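Over the 20 alternatives the members called higher numbered 25 to 35 (27 to 30 when 1 library was left out) and those called lower 1 to 2. The second lower call was Idua without knockout 1. Their median log2 difference stayed between 0.35 and 0.39, and 22 of the 30 risers were called in every alternative in which they were tested. The call was lost in 11 alternatives for Smpd1, 9 for Grn, 6 for Aga, 4 for Fuca1, 2 for Acp2 and 1 each for Glb1, Arsb and Hgsnat. Of the 17 uncalled members, 9 were called in at least 1 alternative. Among the 3 members outside the substrate classes, 1 was called within the odd-numbered and 1 within the even-numbered libraries, with 2 to 3 when 1 library was left out. These fits used fewer libraries, and the cause of these changes was not tested. Some uncalled members changed sign. Ctsb was at -0.0062 within the odd-numbered libraries. Within the even-numbered libraries Ctss was at 0.0415, Prcp at 0.0713 and Pla2g15 at -0.0661, and the cause was not tested. When 1 library was left out, the Ctss log2 difference ran from -0.1763 (without control 2) to 0.0159 (without control 1) and the Prcp log2 difference from -0.0822 (without control 2) to 0.0492 (without control 3). Quantile scaling raised the log2 difference of Psap to 0.76 and that of Ctsd to 0.67, and no scaling moved the median of all genes by more than 0.0113.

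Deviations of libraries with the same replicate number correlated at 0.07, 0.14, 0.13 and 0.17 for numbers 1 to 4, and other pairs of the same parity at 0.02 to 0.16, so libraries deviated together by odd or even number. Since the correlation for number 1 was under 0.1 and the labels give the numbers no meaning, they were not taken as pairs. With a replicate block, 4471 genes were called in all (3893 without it), 32 members were higher (Ctso, Ctsz and Lgmn gained, Aga lost) and Ctsf was lower. With the parity of the replicate number as a covariate 4989 genes were called. The count of all genes called ran from 3055 to 4989 over the alternatives. Small differences in low genes such as Gla are limited by depth that the FPKM values do not give.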
